A study of Mus musculus with 4 samples.

Results

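The interleukin-1 (IL-1) and interleukin-6 (IL-6) family genes examined here were Il1a, Il1b, Il1rn, Il18, Il33, Il6, Lif, Il6ra, Il6st and Osmr, which encode cytokines, 1 antagonist and 3 receptor subunits. They were chosen by name: every probe on the mouse array that carried the name of a member and was not a control was taken, which gave 10 probes for 10 genes, of 39429 probes on the array. Each gene had 1 probe, so that probe was also its brightest. Total RNA had been collected from breast cancer cells derived from tumours that arose in MMTV-Neu mice, which express the Neu (Her2) oncogene in mammary epithelium from a viral promoter. The 4 samples formed 2 groups of 2, Pak1-/- and Pak1+/+, which by their labels lack and carry the p21-activated kinase Pak1, and all of them carried the Neu transgene, were grown in low calcium medium with horse serum, were starved of serum for 3 h and then received epidermal growth factor (EGF) for 15 min. The submitters described 2 tumours for each group, whereas the study's methods name a single line of each genotype, so the p-values measure the spread between these cultures, which were not stated to come from separate animals. The age of the mice was not given in the sources used here.

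Cytokines of the IL-1 family bind a receptor pair of the Toll/IL-1 receptor class and signal through the adaptor MyD88 and the IRAK kinases to NF-κB and MAP kinases. IL-1α and IL-1β are the agonists, the product of Il1rn occupies their receptor without signalling, IL-18 is made as a precursor that caspase-1 cuts, and IL-33 is held in the nucleus of epithelial cells and released on damage. Cytokines of the IL-6 family share the signalling chain gp130, the product of Il6st, and act through JAK kinases and STAT3, with SOCS3 as the feedback inhibitor. In mammary epithelium, LIF and gp130 are known for their part in the involution that follows lactation, and IL-6 is known as a growth factor of many breast tumour cells.

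The arrays shared 1 slide and 1 scan. Positions 1 and 2 held the Pak1-/- samples and positions 3 and 4 the Pak1+/+ samples, and an effect of position cannot be told apart from one of genotype. The median spot intensity was 322 to 331 over a median local background of 39.0 to 42.0, and 62.2% to 70.4% of probes were well above background. The single Pak1 probe had normalized log2 intensities of 12.21 and 12.25 in the Pak1-/- samples and 12.04 and 12.04 in the Pak1+/+ samples (difference 0.19, adjusted p = 0.07 in limma). It was therefore not lower in the samples labelled Pak1-/-, and every direction given here rests on the labels. In these samples 51.9% of the 27229 probes tested differed between the groups at an adjusted p of 0.05 in limma, which is the background for every count that follows. Every one of 9 epithelial marker genes reached a level well above background, while for 4 of 7 fibroblast markers and 2 of 5 endothelial markers (Tek and Emcn) no array reached that level. Of 13 leukocyte markers, 11 reached it on some array.

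Of the 10 members, 9 were well above background on at least 2 arrays and were tested, and 3 of them, Il1a, Osmr and Il1rn, were higher in Pak1-/- cells. None was lower at the adjusted threshold of limma. At an unadjusted p under 0.05 the counts were 5 higher and 0 lower, but the share of all probes at that p was not computed. At the adjusted threshold 23.3% of all probes tested were higher and 28.6% lower, so 3 of 9 members is close to the background share and 0 of 9 rests on few genes. Il1a entered the test only through the Pak1-/- samples, in which it was the higher. With a level well above background required on all 4 arrays, 8 members were tested and Il1a was not among them. For 6 of the 10 members, all of them tested, the groups did not overlap, against 78.2% of the probes tested with 4 values. The median difference over the 10 members, Pak1-/- minus Pak1+/+, was 0.19 on the log2 scale. It was 0.23 over the 9 members tested and -0.05 over all probes tested. In RNA of whole cultures, fewer cells of a type and less RNA per cell cannot be told apart. The count of 3 became 6 under cyclic loess normalization and 1, Il1a, when a fitted 2-fold difference was also required. Of all 27229 probes tested, 13971 passed under cyclic loess in either direction and 3413 with the 2-fold rule.

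**Figure D1:**
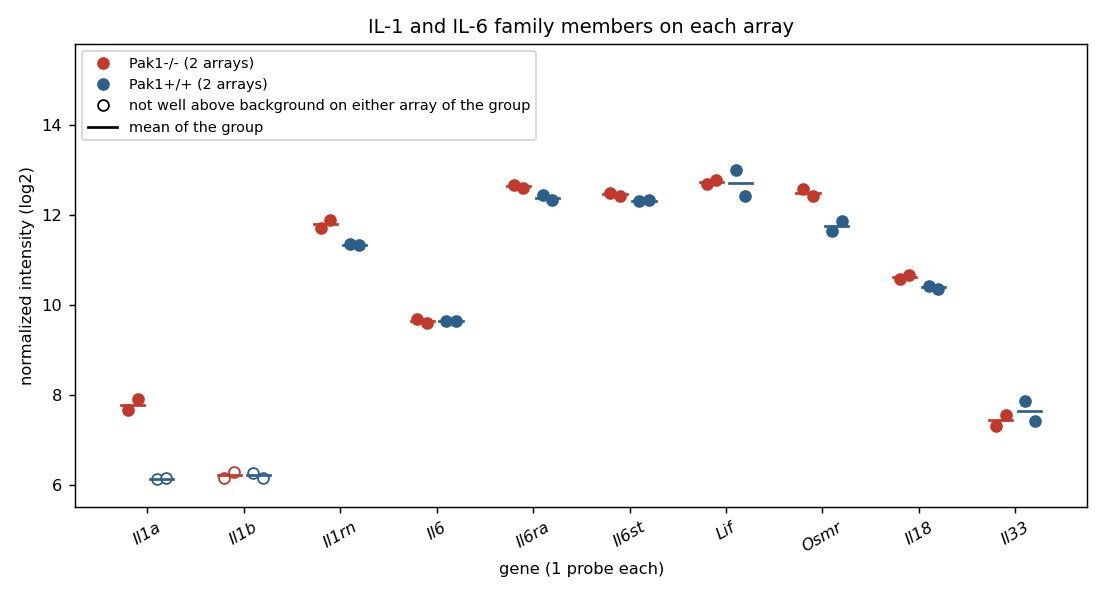
Normalized log2 intensity (vertical axis) of the probe of each of the 10 members on each of the 4 arrays. Red points are the 2 Pak1-/- samples, blue points the 2 Pak1+/+ samples, bars the group means, and open points mark groups in which the probe was not well above background on either array. The Il1a points of the groups are the farthest apart, and those of Il6 and Lif overlap.

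The agonists of the IL-1 receptor were examined first. Il1a, which encodes the membrane-bound and intracellular agonist IL-1α (probe at mm9 chromosome 2, 129125994 to 129126053, minus strand), had log2 intensities of 7.66 and 7.90 in Pak1-/- cells and 6.12 and 6.15 in Pak1+/+ cells. Both Pak1-/- samples were high and both Pak1+/+ samples were at background, where the probe was not well above it. The unprocessed spots had mean signals of 192 and 230 in Pak1-/- cells and 56.9 and 55.8 in Pak1+/+ cells, over local backgrounds of 38.0 to 46.5. Il1a was at least 1.88-fold higher in Pak1-/- cells, as the Pak1+/+ level is only a bound (adjusted p = 0.000592 in limma). The probe entered the test only through the Pak1-/- samples, and its fitted difference of 1.64 depends on how background is treated, so that a 2-fold difference is not established by the bound: it was 3.06 with a normexp offset of 0, 2.35 with an offset of 16 and 3.67 from the scanner's processed signal.

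Il1b, which encodes the secreted agonist IL-1β, lay beside Il1a on the same chromosome (probe at 129190347 to 129190406, minus strand) and was at background in every sample. Its log2 intensities were 6.15 and 6.29 in Pak1-/- cells and 6.27 and 6.15 in Pak1+/+ cells. No array had it well above background, and the groups overlapped. The probe was printed on 10 spots of each array, of which 2, 1, 1 and 0 were well above background on the arrays of Pak1-/- replicates 1 and 2 and Pak1+/+ replicates 1 and 2. The median signal over these spots was 55.8 to 66.1, over a median local background of 38.8 to 43.0. A difference in Il1b was thus not detectable at this signal, and no fold is given.

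Il1rn, which encodes the IL-1 receptor antagonist, was higher in Pak1-/- cells. Its probe (chromosome 2, 24205094 to 24205153, plus strand) had log2 intensities of 11.70 and 11.89 in Pak1-/- cells and 11.35 and 11.33 in Pak1+/+ cells, with no overlap. The difference was 0.46 (SE 0.09, 95% interval 0.22 to 0.70), or 1.37-fold, with an adjusted p of 0.0139 in limma. The call was lost when either Pak1+/+ sample was left out (adjusted p = 0.0545 without replicate 1 and 0.06 without replicate 2; alternatives spanned 0.00861 to 0.06), while the value stayed between 0.36 and 0.55. The sequence of this probe and that of the Il18 probe are shown because both read through the end of the coding sequence, with the stop codon in capitals. The file assigned the Il1rn probe to 3 of the 3 curated RefSeq transcripts of the gene, so the secreted and intracellular forms of the antagonist were measured together.
Il1rn probe: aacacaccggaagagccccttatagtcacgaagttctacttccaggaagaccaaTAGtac
Il18 probe: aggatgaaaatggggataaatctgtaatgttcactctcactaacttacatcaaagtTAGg

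Il18 and Il33 encode the family's cytokines that epithelial cells make as precursors. The Il18 probe shown above (chromosome 9, 50389761 to 50389820, plus strand) had log2 intensities of 10.58 and 10.67 in Pak1-/- cells and 10.43 and 10.36 in Pak1+/+ cells. Both Pak1-/- samples were above both Pak1+/+ samples, and the difference of 0.23 (SE 0.08, 95% interval 0.03 to 0.43) missed the threshold (adjusted p = 0.0567 in limma). It passed in 4 of 14 alternatives, among them cyclic loess (0.31, adjusted p = 0.0249, with a range of 0.0249 to 0.237). Il33 (chromosome 19, 30035101 to 30035160, plus strand) had log2 intensities of 7.31 and 7.55 in Pak1-/- cells and 7.86 and 7.41 in Pak1+/+ cells. The groups overlapped because the Pak1+/+ samples lay apart, and the difference of -0.20 (SE 0.18) had a 95% interval of -0.68 to 0.27 (adjusted p = 0.392). The file assigned the Il33 probe to 2 of 3 curated transcripts of the gene.

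The IL-6 family was represented by the ligands Il6 and Lif, whose levels did not separate the groups. Il6 (chromosome 5, 30346367 to 30346426, plus strand) had log2 intensities of 9.68 and 9.61 in Pak1-/- cells and 9.63 and 9.64 in Pak1+/+ cells. The Pak1+/+ values lay between those of the Pak1-/- samples, and the difference of 0.0056 (SE 0.07) had a 95% interval of -0.18 to 0.19 (adjusted p = 0.953 in limma). Lif, which encodes leukaemia inhibitory factor (chromosome 11, 4172032 to 4172091, plus strand), had log2 intensities of 12.69 and 12.76 in Pak1-/- cells and 13.00 and 12.43 in Pak1+/+ cells. The Pak1+/+ samples were the highest and the lowest of the 4, so that the difference of 0.016 carried a wide interval (SE 0.20, 95% interval -0.52 to 0.55, adjusted p = 0.954). Its sign followed the sample left out: 0.30 without Pak1+/+ replicate 1 and -0.27 without Pak1+/+ replicate 2 (adjusted p = 0.0998 and 0.128; alternatives spanned 0.0998 to 0.986).

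The promoters of Il6 and Il1rn are shown because Il6 is the classical NF-κB and AP-1 target of the list and did not separate the groups, whereas Il1rn was higher. Sequences are those of RefSeq on GRCm38.p6 and end at the last base before the transcription start, with matches in capitals. A shortened NF-κB motif (GGNNTTTCC) and the AP-1 motif (TGANTCA) were searched on both strands in windows of 300 bases, 250 before to 50 after each start. All 10 members matched the promoter table, with 13 windows. The AP-1 letters were present in 5 of these windows (Il1a, Il1rn, Il6, Lif and Osmr) and in 7.81% of all 32851 windows, and the NF-κB letters in 3 windows of Il6 and Il1rn and in 5.82% of all, 2 of the Il1rn windows overlapping on 1 shared match. In the Il6 promoter the matches began 43 and 249 bases before the start, and in the Il1rn promoter shown the AP-1 match began 141 bases before it. The Il1rn window shown held no NF-κB match, which lay in the overlapping Il1rn windows that are not shown. The STAT motif (TTCNNNGAA) was in 0 of the 13 windows and in 8.3% of all, and an interferon response motif (AAANNGAAA) was in 2 overlapping Il1rn windows, on 1 shared match, and in 10.6% of all.
Il6 promoter, chr5:30012864-30013113, plus strand: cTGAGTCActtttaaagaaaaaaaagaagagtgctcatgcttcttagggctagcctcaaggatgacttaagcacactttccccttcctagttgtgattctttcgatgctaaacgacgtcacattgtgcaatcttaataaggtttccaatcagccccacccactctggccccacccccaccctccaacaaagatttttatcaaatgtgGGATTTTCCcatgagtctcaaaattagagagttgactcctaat
Il1rn promoter, chr2:24336610-24336859, plus strand: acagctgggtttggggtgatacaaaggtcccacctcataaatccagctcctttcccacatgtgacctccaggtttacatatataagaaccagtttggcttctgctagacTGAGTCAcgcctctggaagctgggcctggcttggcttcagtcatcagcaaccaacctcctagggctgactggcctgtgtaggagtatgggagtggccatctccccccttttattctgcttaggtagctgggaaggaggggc

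Among the receptor subunits of the IL-6 family, Osmr rose in Pak1-/- cells. Osmr encodes the chain that pairs with gp130 in the oncostatin M receptor (probe at chromosome 15, 6763686 to 6763745, minus strand). Its log2 intensities were 12.58 and 12.41 in Pak1-/- cells and 11.65 and 11.86 in Pak1+/+ cells, with no overlap. The difference of 0.74 (SE 0.11, 95% interval 0.45 to 1.04), or 1.67-fold, passed with an adjusted p of 0.00592 in limma and in all 14 alternatives (0.63 to 0.85, adjusted p 0.00354 to 0.0372).

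Il6ra, which encodes the chain that binds IL-6 (chromosome 3, 89674054 to 89674113, minus strand), had log2 intensities of 12.66 and 12.60 in Pak1-/- cells and 12.45 and 12.32 in Pak1+/+ cells. The groups did not overlap, and the difference of 0.24 (SE 0.08, 95% interval 0.03 to 0.46) missed the threshold (adjusted p = 0.0591 in limma). Under cyclic loess it was 0.33 and passed (adjusted p = 0.0262, with a range of 0.0262 to 0.265), as it did when probes had to be well above background on all 4 arrays (adjusted p = 0.0481). Il6st, which encodes gp130 (chromosome 13, 113296586 to 113296645, plus strand), had log2 intensities of 12.49 and 12.43 against 12.31 and 12.33. The Pak1-/- samples were again the higher, by 0.14 (SE 0.07, 95% interval -0.04 to 0.33), and the difference did not pass (adjusted p = 0.147), except under cyclic loess (0.23, adjusted p = 0.0478, with a range of 0.0478 to 0.39).

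**Figure D2:**
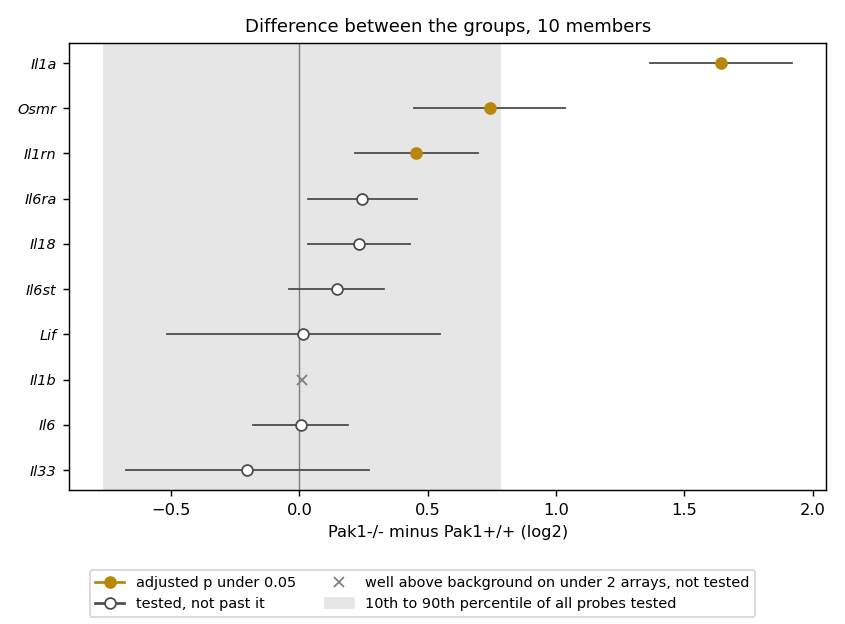
Difference in log2 intensity, Pak1-/- minus Pak1+/+, for the 10 members, with 95% intervals of limma as lines. Filled points passed an adjusted p of 0.05, open points did not, the cross (Il1b) was not tested, and the grey band runs from percentile 10 to percentile 90 of all probes tested (-0.76 to 0.78). Of the members tested only Il1a lies outside the band, and its fitted value depends on the background of the Pak1+/+ samples.

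The binding partners of the members were then examined as a list of 27 other ligands, receptors and binding proteins of both families. All 27 had a probe, 22 were tested, and 4 were higher and 6 lower in Pak1-/- cells, against 23.3% and 28.6% of all probes. The median difference over the 22 genes was -0.03. Of the 4 higher genes only Il18bp was well above background on all 4 arrays, and the count of higher genes was 1 when that was required.

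For the IL-1 receptor, the chains that bind and transmit the signal went in opposite directions. Il1r1, the signalling receptor of IL-1α and IL-1β, had log2 intensities of 8.34 and 8.23 in Pak1-/- cells and 7.01 and 6.80 in Pak1+/+ cells, where it was well above background on 1 of 2 arrays. The difference was 1.39 (SE 0.10, adjusted p = 0.000856 in limma), with values from 1.28 to 2.67 over the alternatives, the largest from the scanner's processed signal. Il1rap, the accessory chain that several receptors of the family share, fell by 1.01 (SE 0.09, adjusted p = 0.00121), from 10.68 and 10.53 in Pak1+/+ cells to 9.63 and 9.56 in Pak1-/- cells. Another Il1rap probe also fell by 1.04, and the remaining one did not pass (-0.52, adjusted p = 0.0521). No array had the decoy receptor Il1r2 well above background. Il1rl1, the IL-33 receptor, was well above background on the Pak1-/- arrays alone, with log2 intensities of 6.87 and 6.93 against 6.86 and 6.94, and did not pass (adjusted p = 0.986).

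For IL-18, the receptor and the soluble inhibitor also differed in direction. Il18bp, which encodes the secreted protein that neutralizes IL-18, had log2 intensities of 11.49 and 11.04 in Pak1-/- cells and 9.08 and 9.08 in Pak1+/+ cells. It was 4.55-fold higher (difference 2.18, SE 0.16, adjusted p = 0.000894 in limma) and passed in all 14 alternatives. Il18r1, the ligand-binding chain of the IL-18 receptor, fell by 0.77 (SE 0.12, adjusted p = 0.00605), from 12.35 and 12.51 to 11.78 and 11.54, and its other probe fell by 1.21. The accessory chain Il18rap was 9.94 and 9.73 against 10.09 and 10.03 and did not pass (-0.23, adjusted p = 0.112).

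For the IL-6 family, Lifr, which encodes the receptor chain for LIF, fell by 1.44 (SE 0.23, adjusted p = 0.00689 in limma), with log2 intensities of 7.80 and 7.74 in Pak1-/- cells and 9.55 and 8.89 in Pak1+/+ cells. All 3 Lifr probes were lower, the others by 0.71 and 1.00 on the log2 scale. Osm, which encodes oncostatin M, was close to background (7.07 and 6.97 against 7.02 and 7.11, adjusted p = 0.646), and Il11 did not pass either (8.74 and 8.67 against 8.63 and 8.66, adjusted p = 0.533).

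**Figure D3:**
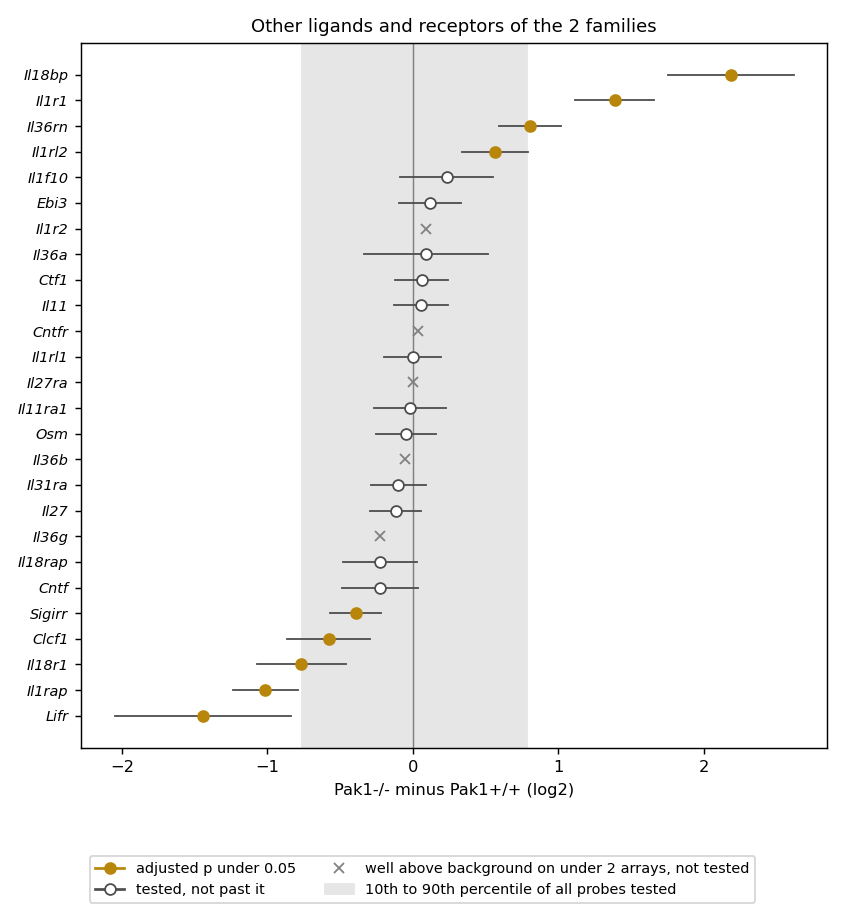
Difference in log2 intensity, Pak1-/- minus Pak1+/+, for 26 of the other ligands, receptors and binding proteins, each by its brightest probe, with 95% intervals of limma as lines. Symbols and the grey band (-0.76 to 0.78) are as for the members. Il18bp (2.18) and Il1r1 (1.39) are the highest, and Lifr (-1.44) and Il1rap (-1.01) the lowest of those plotted.

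Genes that carry the signal of either family were mostly measured well. All 23 signalling genes were tested, and 10 were higher and 4 lower in Pak1-/- cells, against 23.3% and 28.6% of all probes. The median difference was 0.18. Stat3, the main transcription factor downstream of gp130, rose by 0.46 (SE 0.08, adjusted p = 0.00927 in limma; 15.81 and 15.66 against 15.26 and 15.28), while another probe of it did not pass (0.23, adjusted p = 0.118). Socs3, the feedback inhibitor that binds gp130 and is itself a STAT3 target, fell by 1.60 (SE 0.08, adjusted p = 0.000368), from 12.18 and 12.15 in Pak1+/+ cells to 10.65 and 10.49. The adaptor Myd88 did not pass (12.08 and 12.33 against 12.12 and 12.11, adjusted p = 0.505).

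Casp1, which encodes the protease that activates IL-1β and IL-18, rose by 0.67 (SE 0.07, adjusted p = 0.00179), with log2 intensities of 14.81 and 14.82 against 14.15 and 14.13. Among the largest differences of the list in genes well above background on all arrays were those of Irak3 (-1.88), Socs3 and Socs1 (1.35). Irak3, an inhibitor of the IRAK kinases, was 9.05 and 9.31 against 11.11 and 11.00, and Socs1, a JAK inhibitor, 11.36 and 11.31 against 10.16 and 9.82.

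Known targets of these cytokines moved both ways. Of 21 target genes 19 were tested, and 6 were higher and 7 lower, against 23.3% and 28.6% of all probes. The median difference was -0.19. Icam1, Mmp3 and Mmp13 entered the test only through the group in which they were high, and with a level well above background required on all 4 arrays the counts were 5 higher and 5 lower. Saa3, an acute phase gene, rose by 3.72 (SE 0.19, adjusted p = 0.00035 in limma; 13.13 and 12.95 against 9.06 and 9.58) and Ptgs2, which encodes the inducible cyclooxygenase, by 3.41 (SE 0.22, adjusted p = 0.000586; 14.34 and 13.98 against 11.01 and 10.49). The chemokine Ccl2 fell by 2.79 (SE 0.11, adjusted p = 0.000191), from 10.34 and 10.41 to 7.72 and 7.46, and Cxcl5 fell by 1.20 (SE 0.09, adjusted p = 0.000811), from 16.74 and 16.78 to 15.49 and 15.65. The Lcn2 probe was saturated on all 4 arrays, so no difference in it could be measured although it is counted among those tested.

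**Figure D4:**
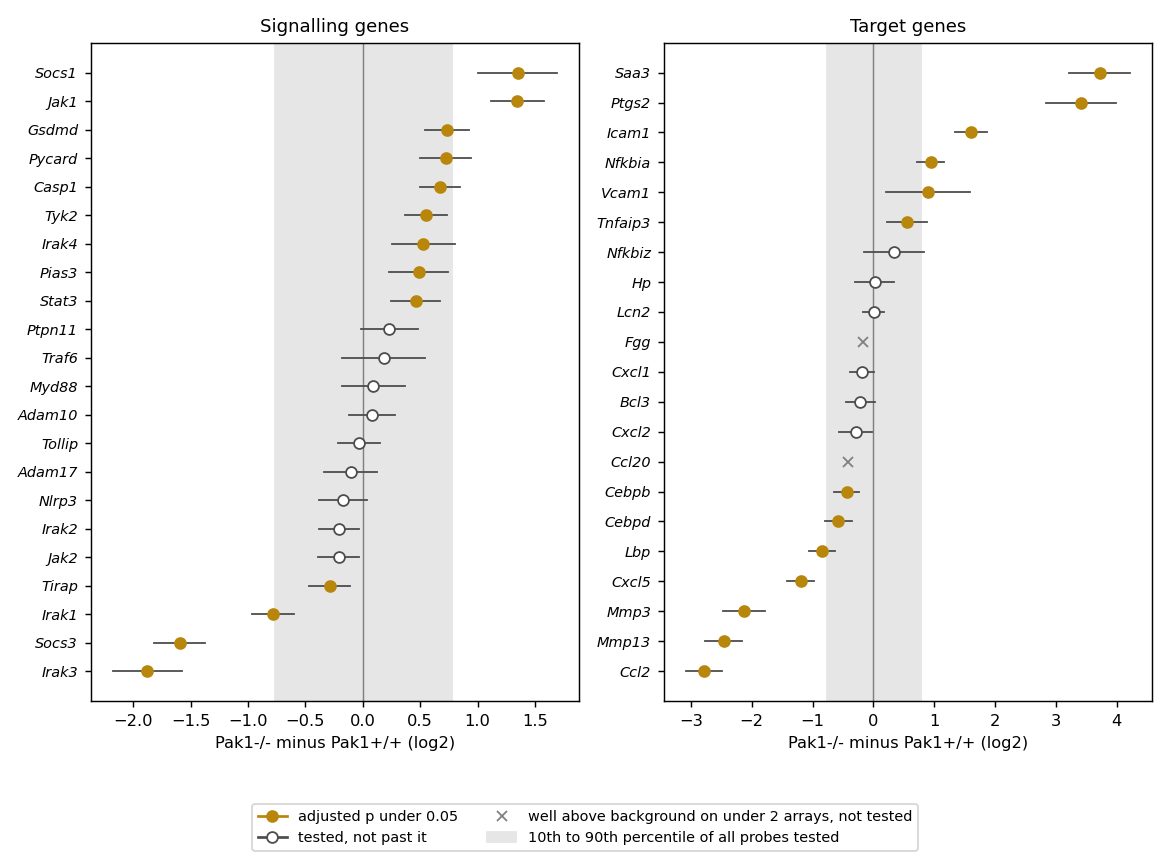
Difference in log2 intensity, Pak1-/- minus Pak1+/+, for 22 of the signalling genes (left) and the 21 target genes (right), each by its brightest probe, with 95% intervals of limma as lines. Symbols and the grey band are as for the members. Of the genes plotted, Socs1 (1.35) and Saa3 (3.72) are the highest, and Irak3 (-1.88) and Ccl2 (-2.79) the lowest.

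Markers of several cell types differed between the groups and are given beside these results, leukocytes being major sources of IL-1 and IL-6. Of 13 leukocyte markers, each by its brightest probe, 10 were tested. In limma 6 were lower in Pak1-/- cells and 0 higher (0 higher also at an unadjusted p under 0.05). Of all probes tested 28.6% were lower and 23.3% higher at the adjusted threshold, the background for each marker count here. The shares at an unadjusted p were not computed. Other probes of Itgam (difference 0.56, adjusted p = 0.0767) and Csf1r (0.28, adjusted p = 0.0528) passed an unadjusted p of 0.05 in the higher direction and not the adjusted threshold. Another Adgre1 probe, not well above background in Pak1-/- cells, was at least 2.47-fold lower there (adjusted p = 0.000225 in limma). The sum of the normalized intensities of all 13 was 126748 and 112319 in Pak1-/- cells and 241365 and 227297 in Pak1+/+ cells. The sums were set by a few bright probes. As computed after the values were seen, they were 80550 and 58378 against 73976 and 71229 without Cd14, and 11631 and 11827 against 30911 and 33547 without Cd14 and Itgam. The called genes besides Ptprc and S100a8 were Cd14, a co-receptor for lipopolysaccharide (difference -1.70), Adgre1, a macrophage marker (-1.05), the neutrophil marker Ly6g (-1.10) and Fcer1g, an Fc receptor chain (-0.37). The 4 that did not pass were Itgam (0.49), Cd3e (0.25), Csf1r (0.12) and Cd68 (-0.20). S100a8, which mammary epithelial cells can also express, fell by 2.38 (12.18 and 12.32 against 14.58 and 14.68), and Ptprc, the general leukocyte marker, fell by 0.45 (7.15 and 7.14 against 7.59 and 7.60). No array had Lyz2 or Tyrobp, markers of myeloid cells, well above background. Epithelial markers moved as well, with 5 of 9 higher and 0 lower (at an unadjusted p under 0.05, 5 higher and 1, Epcam, lower), among them the basal keratin Krt14 (difference 2.83, 15.93 and 15.89 against 13.05 and 13.10) and Cdh1, which encodes E-cadherin (1.19, 12.91 and 12.70 against 11.57 and 11.67). Of 3 fibroblast markers tested, Col1a1 rose by 1.12 (9.31 and 8.88 against 8.03 and 7.93) and the others did not pass, and by their brightest probes 0 of 3 endothelial markers tested passed in limma (0 also at an unadjusted p under 0.05). Another probe of Kdr, not well above background in Pak1+/+ cells, was at least 2.17-fold higher in Pak1-/- cells (adjusted p = 0.000463). The part of such cells in the differences of the cytokine genes was not tested.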

How the data were processed

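Gene expression was measured in 4 samples of mouse tumour-derived breast cancer cells (2 Pak1-/-, 2 Pak1+/+) on single-colour (Cy3) arrays with 60-base probes. The authors deposited scanner files with linear spot intensity values made with Feature Extraction 9.5.3.1, not normalized between arrays, and a table of log2 values that the authors had normexp corrected and quantile normalized. Here, as in the study's methods, spots were normexp corrected (offset 50) and quantile normalized with limma 3.58.1 (R 4.3.3), control and outlier spots were left out, and the spots of each probe were averaged. Of 39429 probes, 27229 were well above background on at least 2 arrays and were tested with lmFit and eBayes (two-sided, genotype the only term, Benjamini-Hochberg over all probes tested, threshold 0.05). The offset and filter were set here. A probe not well above background on either array of a group gives only a bound: the mean of the brighter group was divided by that of the dim group, taking on each dim array the lowest value among probes well above background, or the probe itself if that was brighter. An exact permutation test of 2 against 2 cannot give a p below 0.333, so none was run. The number of arrays limits the precision. Probes were named through RefSeq accessions (26055 matched), with coordinates as in the files (mm9). List genes were represented by their brightest probe.

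The members and lists were chosen with earlier results of these data known. Named were all members, 10 partners of the members, Stat3, Socs3, Myd88 and Casp1, and the 4 largest differences of the signalling and of the target list among called genes well above background on all 4 arrays. The values of 2 list genes are not reported here, although the counts of the lists include them. Alternatives were other offsets, scalings and filters, the deposited log2 table, array weights, a replicate block, other thresholds and leaving out each sample.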

Additional observations from a re-analysis of the deposited data

How the results depend on the processing

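Of the 17 alternatives, the count of 3 higher members stayed within 1.5 times in 15 and that of 0 lower members in all 17. The count of higher members was 6 under cyclic loess and 1 with a 2-fold requirement on the fitted value (Il1a, whose bound is 1.88-fold), and 2 to 3 when each sample was left out. The median member difference of 0.19 was 0.27 under cyclic loess and 0.16 to 0.28 in leave-one-out fits. Requiring a 2-fold difference, a stricter rule, left 2 higher and 3 lower partners, 3 higher and 2 lower signalling genes, and 3 higher and 4 lower targets. By that rule 3413 of all 27229 probes tested passed, in either direction. Requiring a level well above background on all 4 arrays left 1 higher partner, since 3 of the 4 were dim in Pak1+/+ cells. With that filter 13423 of 23772 probes passed, in either direction. Leave-one-out counts were 4 higher and 5 to 6 lower partners, 8 to 10 higher and 3 lower signalling genes, and 4 to 7 higher and 6 to 7 lower targets, the lone sample being taken to vary like the other group. Differences that did not pass changed sign for Lif (-0.018 from the processed signal, -0.27 to 0.30 in leave-one-out fits), Il1rl1 (0.039 from the processed signal, -0.043 to 0.039 in leave-one-out fits) and, in leave-one-out fits alone, Il6 (-0.029 to 0.040), Il33 (-0.43 to 0.023), Osm (-0.098 to 0.0031) and Myd88 (-0.031 to 0.21). The cause was not tested. Il1a and Il1b were empty in the deposited log2 table. The alternatives for list genes and Pak1 were added after the data were seen; Pak1 passed only under cyclic loess (0.27).

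No label ties same-numbered samples together, and the deviations of same-numbered samples were not correlated across probes (r = -0.028, genes not being independent replicates). With the replicate block 13211 probes passed in place of 14132, the members again gave 3 higher and 0 lower, and no call of a named gene changed. Signal over background limits Il1a, Il1b, Il1r1 and Il33.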
